A study of Mus musculus with 4 samples.

Results

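The 10 genes described here are members of the BCL2 family, the proteins that decide whether a cell opens its mitochondria and dies. They were chosen by symbol from a list and all 10 were found among the 21926 genes counted in each library. *Bcl2*, *Bcl2l1* (which encodes BCL-XL) and *Mcl1* encode the 3 survival proteins of the list, *Bax* and *Bak1* the 2 effectors that form pores in the outer mitochondrial membrane, and *Bcl2l11* (BIM), *Bbc3* (PUMA), *Pmaip1* (NOXA), *Bid* and *Bad* the 5 BH3-only death proteins. Thymocytes were sequenced as single cells from an unsorted thymus of 1 mouse per genotype, both at 5 weeks of age and labelled female and as 1 batch, on the DNBelab C4 droplet system. The WT mouse carried *Eif4g2* flox/flox alleles without Cre, so both mice carried the floxed alleles, and the cKO mouse carried CD4-Cre together with *Eif4g2* flox/flox on a C57BL/6 background. CD4-Cre starts to act around the CD4+CD8+ stage.

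Survival proteins hold BAX and BAK in check by binding the BH3 helix, a short stretch that every member of the family carries. BH3-only proteins use the same helix to occupy the survival proteins or to activate the effectors. In the thymus, CD4−CD8− (DN) cells and mature single-positive (SP) cells are known to depend on BCL2, which interleukin-7 signals maintain, whereas CD4+CD8+ double-positive (DP) cells are known to depend on BCL-XL and on MCL1. BIM is known as the main executioner of negative selection, the removal of thymocytes whose receptor binds self too strongly.

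The coding sequence of the BH3 core shows what the members share, and is printed for the 9 members whose sequence may be given. It was searched in 1 GENCODE M21 coding sequence per gene as a leucine codon, any 3 codons, a codon for alanine, glycine or serine, and an aspartate codon. The pattern was found in all 10 members and 1 time in each of the 9 printed. It is short and was also found in 33.8% of the 21545 coding sequences searched, which are of all lengths. The 18 bases of the pattern are in capitals between 6 bases on each side, 5′ to 3′ on the coding strand.
Bcl2: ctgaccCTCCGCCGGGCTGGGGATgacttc
Bcl2l1: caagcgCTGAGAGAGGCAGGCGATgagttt
Mcl1: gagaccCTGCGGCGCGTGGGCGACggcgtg
Bax: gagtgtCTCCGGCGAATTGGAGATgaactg
Bak1: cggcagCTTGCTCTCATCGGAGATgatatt
Bcl2l11: caggagCTGCGGCGGATCGGAGACgagttc
Bbc3: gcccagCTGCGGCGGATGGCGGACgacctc
Bid: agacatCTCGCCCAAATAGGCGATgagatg
Bad: cgtgagCTCCGAAGGATGAGCGATgagttt
Each lay in a single coding exon. In GRCm38 coordinates the capitals were at chr1:106712584-106712601 on the minus strand for *Bcl2*, chr2:152829706-152829723 minus for *Bcl2l1*, chr3:95659436-95659453 plus for *Mcl1* and chr2:128147150-128147167 plus for *Bcl2l11*. They were at chr7:45466006-45466023 minus for *Bax*, chr17:27022540-27022557 minus for *Bak1*, chr7:16313773-16313790 plus for *Bbc3*, chr6:120897298-120897315 minus for *Bid* and chr19:6950792-6950809 plus for *Bad*. Of the 18 core bases, 15 in *Bbc3*, 14 in *Mcl1* and in *Bax*, 11 in *Bcl2*, *Bak1* and *Bad*, and 9 in *Bcl2l1* and *Bid* were the same as in *Bcl2l11*.

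The WT library held 18355050 UMIs (unique molecular identifiers, each counting 1 captured transcript) in 6014 cell barcodes, and the cKO library 18056277 in 4335. The barcode names are serial, and 1055 names were present in both libraries. The WT library goes against its label: *Eif2s3y*, *Uty* and *Kdm5d*, genes of the Y chromosome, held 2542 UMIs in it and 1 UMI in the cKO library. Sex, mouse and genotype cannot be told apart between 1 library and 1 library, and no value without the WT library could be had. *Eif4g2* was listed at 261 CPM (the UMIs of a gene scaled to all UMIs of the class) in the WT and at 522 CPM in the cKO DP-like cells, and since the sources used here do not place the deleted exons, a 3′ count does not check the deletion. Each difference between libraries below is given with no test, and its 95% interval covers counting error only.

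Cells were clustered without the 10 genes and named from markers, giving 98 WT and 130 cKO DN-like cells, 991 and 1304 cycling cells, 3329 and 2094 DP-like cells, 601 and 457 early post-selection-like cells, and 833 and 306 mature SP-like cells. All 9 DN, 8 DP, 13 cycling, 8 early post-selection and 8 mature SP markers were detected in the class they name in both libraries. This is no check of the names, which were set from these lists. All 8 DP markers, for one, were also detected in DN-, cycling, early post-selection- and mature SP-like cells. Their summed level differed, at 10071 CPM in WT and 10120 CPM in cKO DP-like cells and 3170 CPM and 2844 CPM in cycling cells. The DP-like and cycling classes were made of different clusters in the 2 libraries: of the WT DP-like cells, cluster 0 held 1999 and cluster 4 held 916, and of the cKO DP-like cells cluster 1 held 1376. Among cycling cells, cluster 7 held 31 WT and 563 cKO cells and cluster 8 held 518 and 51. Levels are sums of UMIs of a class in CPM, the measure that the plot of levels by stage shows.

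**Figure D1:**
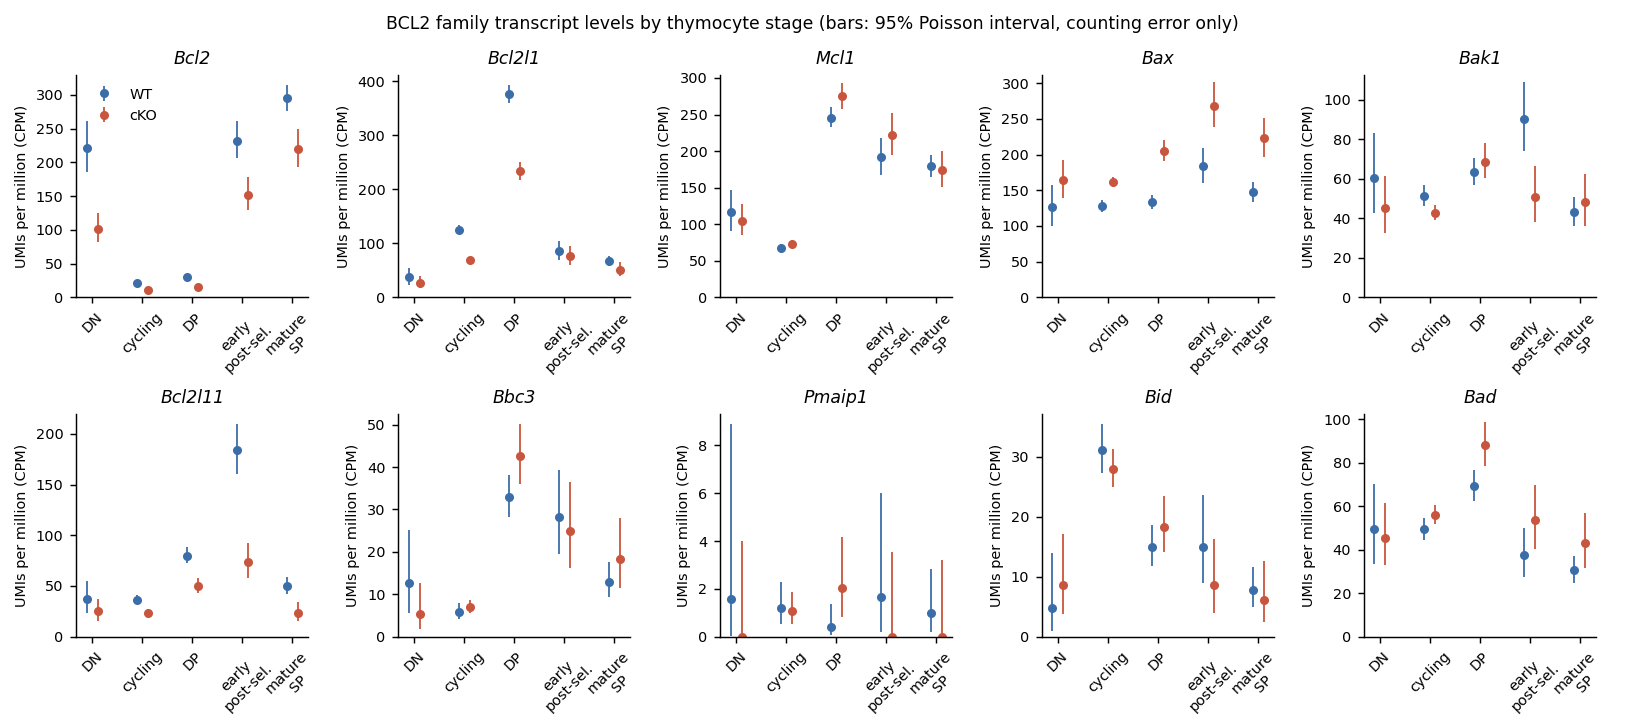
CPM of each BCL2 family gene in DN-, cycling, DP-, early post-selection- and mature SP-like cells of the WT (blue) and cKO (red) library, with 95% Poisson intervals that cover counting error only. *Bcl2* was low in cycling and DP-like cells of both libraries, where it was at 11.4 to 29.97 CPM, *Bcl2l1* was at its highest in DP-like cells, and *Bcl2l11* stood at 184 CPM in WT early post-selection-like cells.

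The survival genes took turns along the path. *Bcl2*, which keeps resting lymphocytes alive, was at 222 CPM (186 to 262) in WT and 102 CPM (82.1 to 124) in cKO DN-like cells. It was at 29.97 CPM (25.5 to 35.04) in WT and 14.8 CPM (11.02 to 19.5) in cKO DP-like cells, the trough shared with cycling cells at 21.03 CPM and 11.4 CPM. It was back at 232 CPM (206 to 261) in WT and 152 CPM (129 to 178) in cKO early post-selection-like cells and at 295 CPM (276 to 315) and 220 CPM (194 to 249) in mature SP-like cells. Mature SP-like cells thus held 9.85 times the DP-like level in WT and 14.9 times in cKO, log2 ratios of 3.30 (3.05 to 3.55) and 3.895 (3.46 to 4.36). Over the alternatives the log2 ratio ran from 2.84 to 3.54 in WT and from 2.42 to 4.17 in cKO. The larger rise in cKO therefore depended on the processing. Early post-selection-like cells held 7.75 and 10.3 times the DP-like level. In each library the order from low to high was cycling, DP, DN, early post-selection and mature SP. The intervals of DN-like and early post-selection-like cells overlapped in WT, as did those of cycling and DP-like cells in cKO.

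*Bcl2l1* ran the other way. It was at 377 CPM (360 to 394) in WT and 234 CPM (218 to 250) in cKO DP-like cells, at 125 CPM and 69.6 CPM in cycling cells, and at 85.5 CPM and 75.6 CPM in early post-selection-like cells. Its lowest values in both libraries were in DN-like cells, at 36.7 CPM (23.2 to 55.0) and 27.0 CPM (17.5 to 39.9), from 23 and 25 UMIs. Mature SP-like cells, at 66.4 CPM and 50.7 CPM, were below DP-like cells by log2 ratios of −2.50 (−2.72 to −2.30) in WT and −2.20 (−2.61 to −1.82) in cKO. *Bcl2* and *Bcl2l1* were past 0.5 on the log2 scale in opposite directions in DN-, early post-selection- and mature SP-like cells of both libraries.

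*Mcl1*, whose protein is short-lived and guards most blood cells, varied less after the DP stage. It was at 246 CPM (233 to 260) in WT and 275 CPM (258 to 293) in cKO DP-like cells, at 192 CPM and 222 CPM in early post-selection-like cells and at 179 CPM and 174 CPM in mature SP-like cells. Cycling cells held the lowest values, 67.3 CPM (61.6 to 73.5) and 72.9 CPM (68.0 to 78.1), which were 0.27 times the DP-like level in each library. DN-like cells were between, at 116 CPM and 105 CPM.

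Of the effectors, *Bax* lay within 0.5 of the DP-like level on the log2 scale in each of the 4 other stages in both libraries, with log2 ratios from −0.35 to 0.46. Its highest values in both libraries were in early post-selection-like cells, at 183 CPM (160 to 209) in WT and 269 CPM (238 to 302) in cKO. *Bak1* was at 63.4 CPM in the WT and at 68.8 CPM in the cKO DP-like cells and at 43.1 CPM and 48.1 CPM in mature SP-like cells, log2 ratios of −0.56 (−0.86 to −0.26) and −0.52 (−0.97 to −0.09). In early post-selection-like cells the libraries split: *Bak1* was at 90.4 CPM (74.3 to 109) in WT, above its DP-like level, and at 50.7 CPM (37.98 to 66.3) in cKO, below it.

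The BH3-only genes differed in the stage at which they were highest. *Bcl2l11* was at 79.98 CPM (72.5 to 88.01) in WT and 50.2 CPM (42.996 to 58.3) in cKO DP-like cells, at 184 CPM (161 to 210) and 73.7 CPM (58.1 to 92.1) in early post-selection-like cells, and at 49.9 CPM and 23.6 CPM in mature SP-like cells. It was thus higher just after selection and lower in mature cells in the main clustering of both libraries. Over the alternatives the early direction turned 1 time in each library. The mature log2 ratio to DP-like cells was −0.68 in WT and −1.09 in cKO, and over the alternatives it reached −0.10 and −0.49. *Bbc3*, a p53 target also induced by cytokine loss and glucocorticoids, was at 32.8 CPM (28.1 to 38.1) and 42.7 CPM (36.0 to 50.1) in DP-like cells, and at 5.86 CPM and 6.97 CPM in cycling cells, log2 ratios of −2.49 (−2.999 to −2.002) and −2.61 (−3.03 to −2.21). *Bid*, cleaved by caspase-8 to link death receptors to mitochondria, was the member past 0.5 above the DP-like level in cycling cells. It was at 31.1 CPM (27.3 to 35.4) in WT and 27.96 CPM (24.96 to 31.2) in cKO cycling cells and at 14.9 CPM and 18.3 CPM in DP-like cells. *Bid* overlaps *Bcl2l13*, *Bak1* overlaps *Ggnbp1* and *Bad* overlaps *Gpr137* on the opposite strand, and without a stated strand setting reads of the overlap cannot be assigned. *Bad*, a sensor switched off by phosphorylation, was at 69.3 CPM and 88.2 CPM in DP-like cells and at 30.4 CPM and 42.8 CPM in mature SP-like cells, log2 ratios of −1.19 (−1.53 to −0.86) and −1.04 (−1.51 to −0.60). *Pmaip1*, a p53 target that binds MCL1, held 21 UMIs in the whole WT library and 19 in the cKO library, and no stage held more than 12, so no order of stages was detectable at this depth.

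Counted over the list, 9 members had at least 50 UMIs over a stage and the DP-like cells of both libraries, and a member was counted when it was past 0.5 in the same direction in both. In mature SP-like cells 1 member, *Bcl2*, was higher and 6 were lower (*Bcl2l1*, *Bcl2l11*, *Bak1*, *Bbc3*, *Bid* and *Bad*). Of all 9508 genes with as many UMIs 8.88% were higher and 37.1% lower. In early post-selection-like cells *Bcl2* and *Bcl2l11* were higher and *Bcl2l1* and *Bad* lower, beside 6.62% and 15.4% of 9198 genes. In DN-like cells *Bcl2* was higher and *Bcl2l1*, *Mcl1*, *Bcl2l11*, *Bbc3* and *Bid* were lower, beside 11% and 40.5% of 9194 genes. In cycling cells *Bid* was higher and *Bcl2l1*, *Mcl1*, *Bcl2l11* and *Bbc3* were lower, beside 13.5% and 49% of 10039 genes. In cycling and early post-selection-like cells the share of members that were lower was thus near that of all genes. In DN- and mature SP-like cells it was above it in the main clustering. Over the alternatives the mature *Bak1* ratio reached −0.32 in WT and −0.13 in cKO, and the mature *Bcl2l11* ratio −0.10 and −0.49. In DN-like cells *Bcl2l11* reached −0.09 in WT and 0.01 in cKO. None of these values is past 0.5. Each share rests on 9 members, so 1 member more or less moves it far, and no difference from all genes was tested.

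A ratio of UMIs of a pair of genes within a class does not depend on scaling to all UMIs. Its shift between stages is free of how well each gene's 3′ end is captured only if that capture is alike in both stages. Whether it is alike was not tested. The ratio of *Bcl2* to its antagonist *Bcl2l11* was 157 to 419 UMIs in WT and 51 to 173 UMIs in cKO DP-like cells, log2 values of −1.42 (−1.69 to −1.15) and −1.76 (−2.24 to −1.30). In mature SP-like cells it was 912 to 154 and 252 to 27, log2 values of 2.57 (2.32 to 2.82) and 3.22 (2.65 to 3.85). The shift from DP-like to mature SP-like cells was therefore 3.98 (3.61 to 4.36) in WT and 4.98 (4.22 to 5.77) in cKO on the log2 scale. Early post-selection-like cells lay between, at 0.33 (0.08 to 0.60) and 1.05 (0.64 to 1.46). In DN-like cells it was 2.60 in WT, near the mature value, and 2.03 in cKO, between the early and the mature value. Between the libraries the ratio was higher in cKO by 0.71 (0.23 to 1.20) in early post-selection-like and 0.66 (0.02 to 1.34) in mature SP-like cells, and in DP-like cells the difference was −0.35 (−0.90 to 0.19). With each library clustered alone the early values were 1.88 in WT and 1.97 in cKO, and without the strongly signalled-like cells 1.02 and 1.35, so the early difference depended on the cells in the class. With each library clustered alone the mature value was 2.12 in cKO and 2.58 in WT, and with a stricter cell filter it was 2.41 and 2.65, so the order of the libraries in mature cells turned under both.

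**Figure D2:**
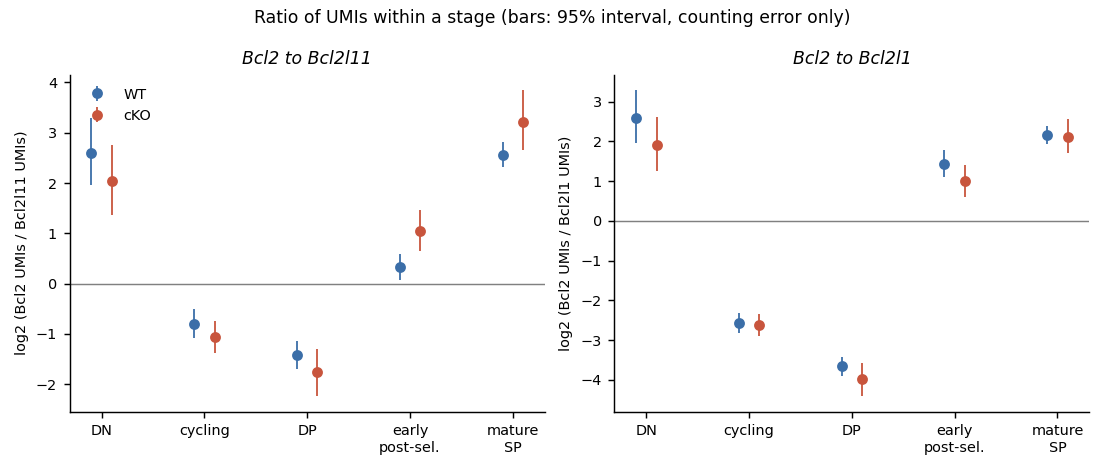
Log2 ratio of *Bcl2* UMIs to *Bcl2l11* UMIs (left) and to *Bcl2l1* UMIs (right) in each stage of the WT (blue) and cKO (red) library, with 95% intervals that cover counting error only. Both ratios were below 0 in cycling and DP-like cells and above 0 in DN-, early post-selection- and mature SP-like cells of both libraries.

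The ratio of *Bcl2* to *Bcl2l1* moved further. It was 157 to 1973 UMIs in WT and 51 to 805 UMIs in cKO DP-like cells, and 912 to 205 and 252 to 58 in mature SP-like cells. Its shift from DP-like to mature SP-like cells was 5.80 (5.48 to 6.13) in WT and 6.10 (5.49 to 6.71) in cKO on the log2 scale. Most of it was already there in early post-selection-like cells, at 5.09 (4.68 to 5.51) and 4.99 (4.40 to 5.58). The difference between the libraries in mature SP-like cells was −0.03 (−0.51 to 0.46).

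The same exchange was seen in the shares of cells with a UMI. Each cell was thinned to 1000 UMIs so that stages of different depth could be set side by side. A *Bcl2l1* UMI without a *Bcl2* UMI was found in 28.2% (26.7 to 29.8, exact Clopper-Pearson interval) of 3329 WT and 18.7% (17.1 to 20.5) of 2094 cKO DP-like cells, and a *Bcl2* UMI without a *Bcl2l1* UMI in 2.16% and 1.38%. In mature SP-like cells *Bcl2* alone was found in 18.8% (16.2 to 21.7) of 833 WT and 17.3% (13.3 to 22.04) of 306 cKO cells and *Bcl2l1* alone in 5.40% and 3.59%. Cells with both made up at most 0.960% of the DP-, early post-selection- and mature SP-like cells of either library. Most cells held neither at this depth, 69.0% of WT and 79.8% of cKO DP-like cells and 74.8% and 78.4% of mature SP-like cells. Few cells with both are thus no sign that the 2 genes exclude each other within a cell. Before thinning, 43.7% of WT and 37.3% of cKO mature SP-like cells held a *Bcl2* UMI, at medians of 3310 and 3293.5 UMIs per cell, and in 3.88% and 2.24% of DP-like cells, at 1399 and 1360.5. Outside the T lineage, 0 of 44 WT erythroid-like cells held a *Bcl2* UMI at a median of 6089.5 UMIs, with an exact upper limit of 8.04%. Of 61 WT antigen-presenting-like cells 18.03% did at a median of 2049. The limit of 44 cells lies above the DP-like *Bcl2* shares, so it does not tell those shares from background. Before thinning, *Bcl2l1* was detected in 38.8% of the WT and 29.04% of the cKO DP-like cells and in 18.2% of the WT erythroid-like cells. Whether cells outside the T lineage express *Bcl2* or *Bcl2l1* themselves was not tested, so their shares do not measure background.

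**Figure D3:**
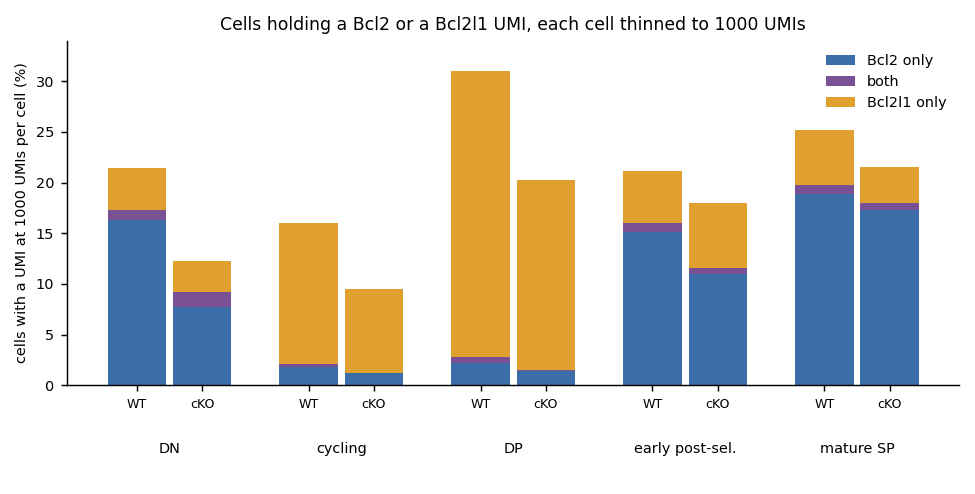
Percentage of cells of each stage that held a UMI of *Bcl2* alone (blue), of *Bcl2l1* alone (yellow) or of both (purple) after each cell was thinned to 1000 UMIs, in WT and cKO. *Bcl2l1* alone made up 28.2% of WT and 18.7% of cKO DP-like cells, and *Bcl2* alone 18.8% and 17.3% of mature SP-like cells.

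*Bcl2l11* was highest in a small group of cells that carry genes of strong receptor signals. The leading genes of this cluster of 49 WT and 18 cKO cells included *Nr4a1*, *Gadd45b*, *Nr4a3*, *Tnfrsf9* and *Ikzf2*. It was named from 9 markers of strongly signalled cells, so they are no separate check of the name. They summed to 1439 CPM in WT and 1061 CPM in cKO early post-selection-like cells, and to 4965 CPM and 2761 CPM in the cluster. *Bcl2l11* was at 941 CPM (772 to 1136) there in WT, from 108 UMIs, and at 460 CPM (268 to 737) in cKO, from 17 UMIs, which was 11.8 and 9.17 times the DP-like level. The size depended on how the cluster was cut. At resolution 1.6, with 110 WT and 49 cKO strongly signalled-like cells, *Bcl2l11* was at 420 CPM and 161 CPM. In the main cluster after thinning, 46.9% (32.5 to 61.7) of the WT and 22.2% (6.41 to 47.6) of the cKO cells held a *Bcl2l11* UMI, against 6.61% and 4.20% of DP-like cells. Before thinning the shares were 57.1% and 50% at medians of 2111 and 1808 UMIs, and 2.27% of 44 WT erythroid-like cells held one at a median of 6089.5. *Bcl2* was high in the same WT cells, at 331 CPM (234 to 454) from 38 UMIs, and at 108 CPM (29.5 to 277) from 4 UMIs in cKO. In the cluster of 49 WT and 18 cKO cells, of 5 markers of regulatory T cells *Foxp3* was at 0 in both libraries and *Il2ra* at 0 in cKO. The list, which shares *Ikzf2* and *Tnfrsf18* with that of strongly signalled cells, summed to 2883 CPM in WT and 1353 CPM in cKO. The sums were 1244 CPM and 857 CPM in early post-selection-like cells. The 14 markers of antigen-presenting cells summed to 453 CPM in WT and 812 CPM in cKO, against 109.5 CPM and 68.9 CPM in early post-selection-like cells. Their part in the result was not tested.

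Of these 67 cells, 55 fell into the early post-selection-like class. Without them *Bcl2l11* was at 108 CPM (89.4 to 129) in WT and 60.3 CPM (46.2 to 77.5) in cKO, and the log2 ratio to DP-like cells was 0.43 (0.13 to 0.72) in WT and 0.27 (−0.18 to 0.69) in cKO, in place of 1.20 (0.96 to 1.44) and 0.55 (0.15 to 0.95). *Bcl2* then exceeded *Bcl2l11* by log2 values of 1.02 (0.70 to 1.34) and 1.35 (0.91 to 1.80). Of the 222 *Bcl2l11* UMIs of the WT early class 121 remained, and of the 77 of cKO 61. With each library clustered alone the WT ratio to DP-like cells was −0.06, and at a resolution of 1.6 the cKO ratio was −0.10.

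Between the libraries, the effect of *Eif4g2* deletion is the question of the study, and the comparison holds 1 mouse each. The median log2 ratio of cKO to WT over all genes tested was −0.18 in DP-like, −0.24 in early post-selection-like and −0.25 in mature SP-like cells, −0.28 in cycling and −0.10 in DN-like cells. In DP-like cells 3 of 9 members with at least 50 UMIs were lower in cKO by over 0.5 (*Bcl2*, *Bcl2l1* and *Bcl2l11*), beside 29.4% of 8850 genes, and 1 was higher (*Bax*), beside 8.28%. In early post-selection-like cells 3 of 8 were lower (*Bcl2*, *Bcl2l11* and *Bak1*), beside 35.3% of 5872 genes, and 2 higher (*Bax* and *Bad*), beside 8.24%. In mature SP-like cells 1 of 8 was lower (*Bcl2l11*), beside 36.3% of 7285 genes, and 2 were higher (*Bax* and *Bbc3*), beside 8.33%. In DN-like cells 0 of 5 members with at least 50 UMIs were higher and 1, *Bcl2*, lower in cKO, beside 11% and 27% of 3979 genes. In cycling cells 0 of 9 were higher and 3 lower (*Bcl2*, *Bcl2l1* and *Bcl2l11*), beside 3.2% and 35.4% of 9372 genes. The shares of members lower in cKO were near those of all genes in DP- and early post-selection-like cells. The medians of the members counted were 0.16, −0.18 and 0.06 in the same order.

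**Figure D4:**
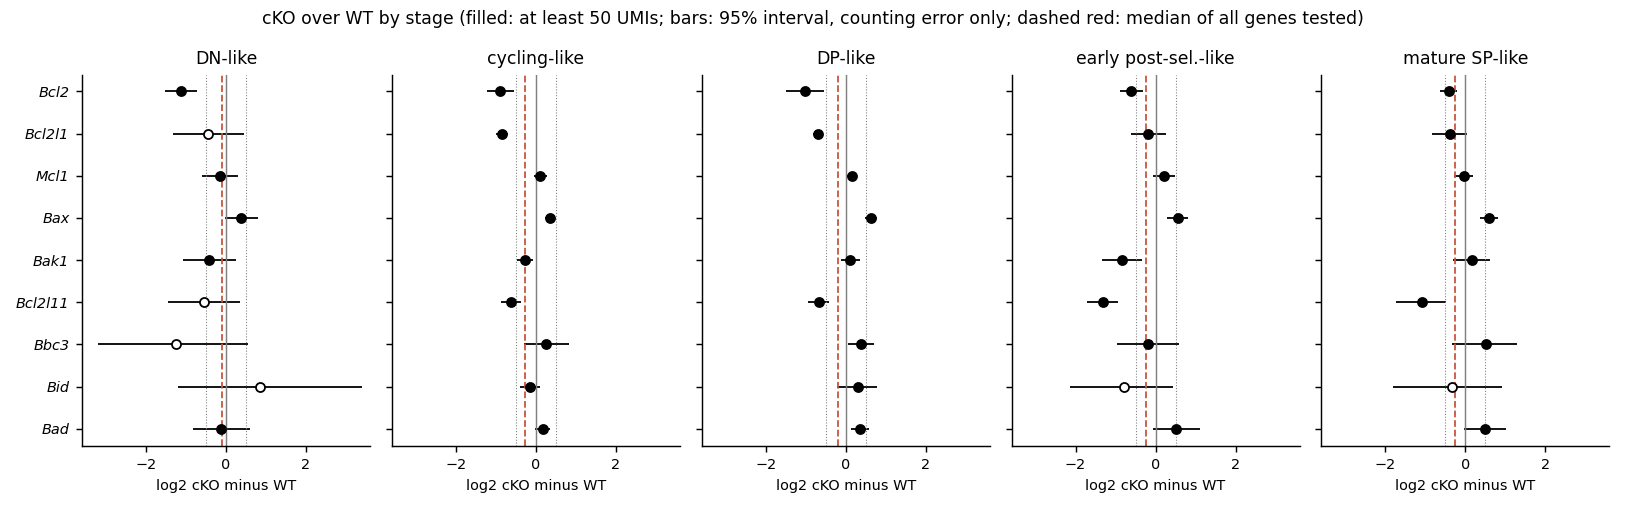
Log2 ratio of cKO to WT for 9 BCL2 family genes in each stage, with 95% intervals that cover counting error only. Filled points have at least 50 UMIs over both libraries, dotted lines mark 0.5 in each direction and the dashed red line the median of all genes tested. *Bax* lay above 0 and *Bcl2* and *Bcl2l11* below 0 in all 5 stages.

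*Bcl2* was lower in cKO in each of the 5 stages. The log2 ratios were −1.12 (−1.52 to −0.74) in DN-like, −0.89 (−1.23 to −0.54) in cycling, −1.02 (−1.50 to −0.55) in DP-like, −0.61 (−0.90 to −0.33) in early post-selection-like and −0.42 (−0.63 to −0.22) in mature SP-like cells. DN-like cells precede the stage at which CD4-Cre is known to act, and their ratio was −0.49 with cells thinned to 1000 UMIs. The mature ratio depended on the processing and ran from −0.97 with stages set by transcript gates to −0.09 with cells thinned to 1000 UMIs. *Bcl2l1* was lower by over 0.5 in cycling cells, at −0.85 (−0.98 to −0.71), and in DP-like cells, at −0.69 (−0.81 to −0.57), and its intervals spanned 0 in the other 3 stages. Within DP-like clusters 0, 1, 4 and 5 it was −0.40, −0.52, −0.15 and −0.34, each nearer 0 than the DP-like value. Within cycling clusters 6, 7, 8 and 9 it was −0.46, −0.86, −0.58 and −0.37. The part of the different clusters in these differences was not tested. *Mcl1* lay within 0.5 in all 5 stages, with ratios from −0.15 to 0.21.

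*Bax* was higher in cKO in each stage, by 0.38 (−0.02 to 0.79) in DN-like, 0.34 (0.23 to 0.46) in cycling, 0.62 (0.47 to 0.78) in DP-like, 0.55 (0.29 to 0.81) in early post-selection-like and 0.60 (0.37 to 0.82) in mature SP-like cells. Within cycling clusters 6, 7, 8 and 9 its ratio was 0.28, 0.25, −0.004 and 0.15. The share of mature SP-like cells with a *Bax* UMI after thinning was 12.1% (9.99 to 14.5) in WT and 24.2% (19.5 to 29.4) in cKO, and 35.2% and 50.98% before it. *Bax* overlaps the counted gene Gm45808 on the same strand. *Bak1* had a log2 ratio of −0.83 (−1.34 to −0.35) in early post-selection-like cells and lay within 0.5 elsewhere.

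*Bcl2l11* was lower in cKO, with log2 ratios of −0.67 (−0.94 to −0.41) in DP-like, −1.32 (−1.72 to −0.94) in early post-selection-like, −1.08 (−1.73 to −0.48) in mature SP-like and −0.62 (−0.87 to −0.37) in cycling cells. The mature value was −0.25 with a stricter cell filter and −0.32 with each library clustered alone, and the early value was −0.48 with the latter. Without the strongly signalled-like cells the early value was −0.84 (−1.30 to −0.38). *Bad* was higher by 0.35 (0.12 to 0.57) in DP-like, 0.52 (−0.07 to 1.12) in early post-selection-like and 0.49 (−0.04 to 1.01) in mature SP-like cells. *Bbc3* had a log2 ratio of 0.38 (0.05 to 0.70) in DP-like cells, which was −0.23 with stages set by transcript gates, and its mature value of 0.50 (−0.33 to 1.30), from 40 and 21 UMIs, turned to between −0.84 and −0.19 under 5 alternatives. *Bid* lay within 0.5 in cycling and DP-like cells and held under 50 UMIs elsewhere. *Pmaip1* held 2 UMIs in WT and 7 in cKO DP-like cells.

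DP-like cluster 5, led by *Slc7a11* and *Insl5*, was the DP-like cluster that held at least 100 cells of each library, 342 WT and 562 cKO. Within it *Bax* was higher in cKO by 0.76 (0.36 to 1.17) and *Bbc3* by 1.09 (0.27 to 2.01), while *Bad* stood at 97.3 CPM (WT) and 88.5 CPM (cKO), a log2 ratio of −0.14 (−0.61 to 0.35). *Bcl2l1* was lower, with a log2 ratio of −0.34 (−0.61 to −0.07), and *Bcl2l11* was at 55.4 CPM and 53.7 CPM, a ratio of −0.04. *Bcl2* held 11 and 17 UMIs, with a ratio of −0.46 (−1.64 to 0.78). Over the 11 clusters with at least 50 UMIs of it *Bax* was above 0 in 8 and below 0 in 3, the lowest at −0.29 (−0.90 to 0.40) in DP-like cluster 1 with 72 WT cells, and *Bcl2l11* was below 0 in 8 of 10 and above 0 in 2. The *Bcl2l11* ratio of the cluster that both libraries filled was thus near 0, with an interval that reached from −0.66 to 0.60.

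The 10 genes differ in length, and the ratio of cKO to WT moved with the annotated length of a gene over all genes. In DP-like cells its median was 0.20 over 893 genes of up to 5 kb, 0.05 over 2838 of 5 to 20 kb, −0.22 over 2582 of 20 to 50 kb, −0.49 over 1339 of 50 to 100 kb and −0.75 over 1034 of over 100 kb. The order was the same in the other stages, and in DN-like cells the medians ran from 0.11 to −0.85. *Bcl2* spans 176 kb, and its DP-like ratio of −1.02 lay at the lower quartile of genes over 100 kb, which was −1.02, while its mature ratio of −0.42 lay above their upper quartile of −0.54. *Bcl2l1* spans 51.1 kb, and its DP-like ratio of −0.69 lay between the quartiles of genes of 50 to 100 kb, −0.77 and −0.17. *Bcl2l11* spans 36.5 kb, and its ratios of −0.67, −1.32 and −1.08 lay below the lower quartiles of genes of 20 to 50 kb, which were −0.51, −0.65 and −0.69. *Bax* spans 5.20 kb and lay above the upper quartiles of genes of 5 to 20 kb, which were 0.32, 0.31 and 0.29, in all 3 stages. The part of gene length in these differences was not tested.

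**Figure D5:**
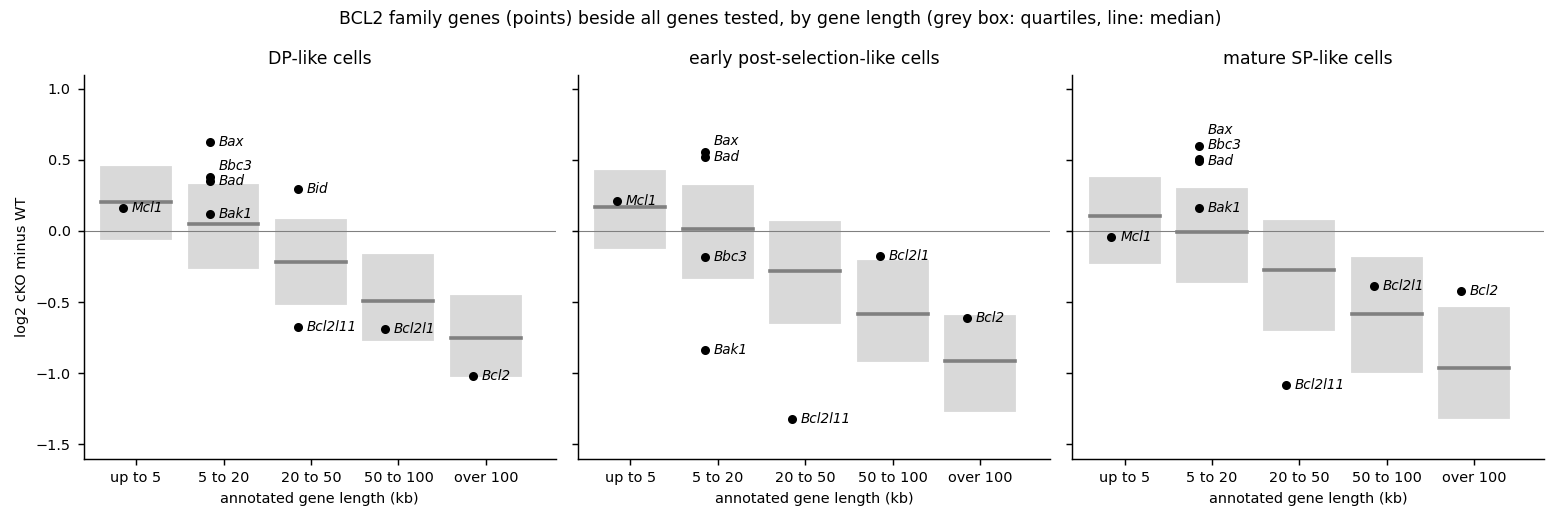
Log2 ratio of cKO to WT of BCL2 family genes with at least 50 UMIs (points) in DP-, early post-selection- and mature SP-like cells, placed by annotated gene length in kb, beside the quartiles (grey boxes) and medians (grey lines) of all genes tested with a UMI in both libraries. In DP-like cells the median was 0.20 in the shortest class and −0.75 in the longest, and *Bcl2l11* lay below and *Bax* above the box of their length in all 3 stages.

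The study concerns the CD8 lineage, so mature SP-like cells were split by coreceptor transcripts, which at this depth gives a range and not a lineage. *Cd4* UMIs without *Cd8a* or *Cd8b1* UMIs were found in 179 WT and 55 cKO cells, and the reverse in 289 and 80. *Bcl2* was at 317 CPM (272 to 367) in WT and 404 CPM (311 to 516) in cKO cells with *Cd4* alone, and at 324 CPM (292 to 359) and 180 CPM (135 to 235) in cells with Cd8 transcripts alone. In WT the Cd8 side over the Cd4 side was 0.03 (−0.23 to 0.30) on the log2 scale and in cKO −1.17 (−1.72 to −0.62). The ratio of cKO to WT was −0.85 (−1.30 to −0.43) on the Cd8 side and 0.35 (−0.09 to 0.77) on the Cd4 side. In cells with neither transcript, 105 WT and 30 cKO, *Bcl2* was at 373 CPM (302 to 454) and 142 CPM (77.4 to 238), and in cells with both, 260 and 141, at 238 CPM (211 to 268) and 204 CPM (169 to 244). Lower *Bcl2* in cKO was thus also seen in the cells with neither. *Bax* was higher in cKO by 0.87 (0.44 to 1.29) on the Cd8 side and by 0.23 (−0.37 to 0.81) on the Cd4 side. *Bcl2l11* held 33 UMIs in the WT and 0 in the cKO cells with *Cd4* alone, where 0 UMIs leave up to 23.3 CPM. On the Cd8 side it held 46 UMIs in WT and 9 in cKO, a log2 ratio of −0.43 (−1.65 to 0.62). *Bcl2l1* and *Mcl1* had intervals that spanned 0 on both sides.

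The rest of the apoptosis machinery was read from 42 genes outside the list, of which all were counted. In mature SP-like cells 27 had at least 50 UMIs, and 2 were higher and 8 lower in cKO by over 0.5, beside 8.33% and 36.3% of all genes tested, with a median log2 ratio of −0.17 beside −0.25. In DP-like cells 2 of 29 were higher and 3 lower, beside 8.28% and 29.4% of all genes tested, with a median of −0.02 beside −0.18. *Cycs*, cytochrome c, the protein whose release activates the apoptosome, stood at 142 CPM in the WT and 245 CPM in the cKO DP-like cells, a ratio of 0.79 (0.65 to 0.93), and at 184 CPM and 284 CPM in mature SP-like cells, 0.62 (0.42 to 0.82). *Vdac3*, a channel of the outer mitochondrial membrane, was at 60.9 CPM and 104 CPM in mature SP-like cells, 0.77 (0.43 to 1.11).

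*Birc3*, an inhibitor of apoptosis protein, was lower, at 73.2 CPM in WT and 34.1 CPM in cKO mature SP-like cells, −1.10 (−1.63 to −0.61), and its relative *Birc2* was at 29.5 CPM and 14.9 CPM, −0.99 (−1.83 to −0.23). *Foxo3*, a transcription factor of resting cells, spans 94.9 kb and was at 86.7 CPM and 35.4 CPM in DP-like cells, −1.29 (−1.59 to −1.0002). *Bcl2a1b*, a survival gene with near-identical copies among which reads can be split, held 74 UMIs in WT and 9 in cKO mature SP-like cells, −1.61 (−2.79 to −0.60), and its value is uncertain for that reason. These 6 were taken by the size of the ratio in DP- or mature SP-like cells.

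Over the 10 points of 5 stages and 2 libraries, the genes most like each of 5 members were found among 3138 other genes (3139 for *Pmaip1*) with a mean of at least 50 CPM. The points share 2 libraries, so r is a description. *Cd53* followed *Bcl2* most closely, with a Pearson r of 0.96 on log2(CPM + 10), then *Ptpn2* with 0.93 and *Grcc10* with 0.92. *Nfatc3*, *Ets2* and *Pycard* followed *Bcl2l1*, with r of 0.98, 0.97 and 0.97. *Efr3a*, *Ube2r2* and *Pnrc1* followed *Mcl1*, with 0.98, 0.98 and 0.97, and *Etnk1*, *Pitpnm2* and *Ikzf1* followed *Bcl2l11*, with 0.97, 0.97 and 0.96. For *Pmaip1*, whose mean was 0.889 CPM, the highest values were 0.75 for *Mrpl45*, 0.70 for *Med19* and 0.69 for *Wdr70*, and they rest on at most 12 UMIs a class.

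Outside the main path, 55 WT and 15 cKO cells were NKT- or gamma delta-like. *Bcl2* was at 117 CPM (75.2 to 175) and 73.9 CPM (27.1 to 161) in them, and *Bcl2l1* at 58.7 CPM and 36.9 CPM. In 61 WT and 25 cKO antigen-presenting-like cells *Mcl1* was at 247 CPM (183 to 325) and 291 CPM (170 to 466) and *Bcl2* at 74.0 CPM (41.4 to 122) and 0 CPM, where 0 UMIs leave up to 63.2 CPM. The 14 markers of antigen-presenting cells summed to 29.7 to 133 CPM in DP-, early post-selection- and mature SP-like cells, and 5 erythroid markers summed to 206 to 309 CPM in WT and 10.5 to 16.3 CPM in cKO cells of those stages. Both lists moved with the library, and their part in the differences between libraries was not tested.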

How the data were processed

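Thymus cells of 1 WT and 1 cKO mouse were measured by droplet 3′ RNA sequencing. The deposited matrices hold raw UMI counts per gene and cell barcode that the authors made with dnbc4tools (2.1.3 in the series text, 3.0 in the matrix headers) on mm10. The oligo libraries, which carry bead barcodes, were not used. The 10 members and all lists were chosen with earlier results of these data known.

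Cells with at least 50 genes and at most 10% mitochondrial UMIs were kept (6012 of 6014 in WT, all 4335 in cKO), and no doublet caller was run. Counts were scaled to 10000 per cell, and 2000 variable genes, without the members and the apoptosis list, gave 30 components, 20 neighbours and Leiden clusters at resolution 1 (scanpy 1.11.5, Python 3.11.15), first of all cells and then of T lineage cells. UMIs were summed per class and library. CPM have exact Poisson 95% intervals, log2 ratios exact conditional binomial ones. With 1 mouse per genotype there was no test, and a ratio was counted past 0.5 with at least 50 UMIs. The steps were tested on simulated data. Gene lengths and positions come from GENCODE M21 (GRCm38), matched by identifier for 97.9% of 21926 genes. All members, markers, *Eif4g2*, genes of the like-pattern rule and the 6 largest of the apoptosis list were named. The BH3 pattern was searched in 1 GENCODE coding sequence per gene in place of the planned RefSeq proteins. Alternatives changed the cell filter, resolution, joint clustering, stage definition, scaling, depth, UMI minimum and threshold. Leaving out the strongly signalled-like cells, DP-like cluster 5 alone and strongly signalled-like cells at resolution 1.6 were alternatives chosen after seeing the data.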

Additional observations from a re-analysis of the deposited data

Results flagged for a closer look

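*Bak1*, an effector of mitochondrial pore formation, moved in opposite directions from DP-like to early post-selection-like cells in the 2 libraries, with a log2 ratio of 0.51 (0.19 to 0.83) in WT and −0.44 (−0.90 to −0.00) in cKO. It was the only one of the 9 members with at least 50 UMIs whose intervals lay on opposite sides of 0 in a comparison of stages. The difference between the libraries was not tested, since each genotype is 1 mouse. The WT value ranged from 0.03 to 0.61 and the cKO value from −0.78 to −0.14 over the 7 alternatives of each, and the WT value of 0.03 was that at a clustering resolution of 0.6.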

How the results depend on the processing

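No paired analysis was possible because each genotype is 1 library and no test was made. With each library clustered alone, log2 *Bcl2* over *Bcl2l11* was −0.29 in WT cycling, 1.88 in WT and 1.97 in cKO early post-selection-like and 2.12 in cKO mature SP-like cells. With a stricter cell filter the last 3 were 0.95, 1.77 and 2.41. Members higher in cKO in DP-like cells were 3 when centred on the median and 0 at a threshold of 1, and 1 member was lower at that threshold. In early post-selection-like cells members higher were 0 with the strict filter, with libraries clustered alone, with the mean of single-cell CPM and at a threshold of 1, and 1 at resolution 1.6, after thinning and at a minimum of 200 UMIs. Members lower there were 0 with libraries clustered alone and 1 at resolution 0.6 and at a threshold of 1. In mature SP-like cells members higher were 1 at resolutions 0.6 and 1.6, with single-cell means, with transcript gates and at a minimum of 200 UMIs, and 0 at a threshold of 1. Members lower there were 0 with the strict filter and at a minimum of 200 UMIs, 2 at both other resolutions and after thinning, and 3 with gates. Of the 42 apoptosis genes, a threshold of 1 left 0 higher in DP-like and in mature SP-like cells, and 1 and 2 lower.

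The direction turned for *Bbc3* in mature SP-like cells, at −0.84 with the strict filter, −0.19 at resolution 0.6, −0.81 at 1.6, −0.26 after thinning and −0.57 with gates. It turned for *Bcl2l11* over the DP-like level in early post-selection-like cells of WT (−0.063, libraries clustered alone) and of cKO (−0.10, resolution 1.6) and in DN-like cells of cKO (0.0097, thinned), and for *Bcl2* in cycling cells of WT (0.026, libraries clustered alone). Strongly signalled-like cells at resolution 1.6 (110 WT and 49 cKO cells) had a *Bcl2l11* ratio of −1.38 (−2.004 to −0.81). Their *Bcl2* ratio was 0.43 (−0.14 to 0.98), in place of −1.61 (−3.56 to −0.14) in the main cluster. *Mcl1* in DN-like cells reached 1.98 after thinning. The cause was not tested for any of these. Also with gates, *Bbc3* in DP-like cells was at −0.23. Summed over a stage, *Bax* was above 0 in all 5 stages under each alternative, from 0.34 to 0.94, and *Bcl2* and *Bcl2l11* below 0 in all 5, while within single clusters *Bax* was below 0 in 3 of 11 and *Bcl2l11* above 0 in 2 of 10.

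Without a further mouse per genotype the spread between animals is unknown, and members with under 50 UMIs were not counted.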
